A study of Homo sapiens with 102 samples.

Results

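The genes described here are the 45 RPL and RPLP genes that encode proteins of the large ribosomal subunit, taken as a fixed list of symbols. All 45 were found among the 24965 genes of the count table. The table came from a small Combi-Seq screen, in which single cells were enclosed in droplets with pairs of drugs and the transcripts of each pair were tagged with a ligated barcode. The cells were K562, an established chronic myeloid leukaemia line driven by the BCR-ABL fusion, and every library was made after 12 h of incubation. Each of 2 screens, labelled dT and Bio, held the 16 ordered pairs of DMSO (the solvent), imatinib (which blocks the kinase of BCR-ABL), trametinib (an inhibitor of the MEK kinases) and YM115 (spelled YM155 by the study), in 3 runs, plus 3 separate DMSO controls. Doses are not part of the labels and are not reported here, and no primary cells or second cell line were included, so every value below is from 1 line. Which drug of a label entered from which injection source was not settled, so the drugs of a pair are called first-listed and second-listed.

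Ribosomal proteins of the large subunit surround the RNA that forms peptide bonds, line the tunnel through which the new chain leaves, and build the stalk that recruits translation factors. Growing cells make them in near equal numbers because each takes a single place in the particle, apart from the stalk proteins. Their messenger RNAs are short and abundant, begin with a run of pyrimidines that couples their translation to growth signals, and have left many processed pseudogenes in the genome.

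The comparisons used all 48 in-screen dT libraries and 44 of 48 in-screen Bio libraries, those in which 1000 genes or more were detected and mitochondrial counts did not exceed 15%. The 4 libraries left out were Bio DMSO_Trametinib run 1 and the 3 runs of Bio Imatinib_Imatinib, which had 438 to 808 detected genes. Total counts ran from 127042 to 759756 per library in dT (median 350752) and from 81806 to 780143 in the Bio libraries that entered (median 238673). All 10 K562 marker genes had counts in both screens, summing to 40258.8 CPM (counts scaled to the library total) in dT and 29137 CPM in Bio, against 67.6 and 96.1 CPM for 8 markers of cells that should be absent, 4 of which had counts.

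The 45 genes together took a steady share of each library. In dT they held 9.53% of all counts in the lowest library, 12.5% in the median library and 16.5% in the highest, with a mean of 12.6% ± 1.59 (SD, n = 48). In Bio the corresponding values were 8.29%, 12.2% and 16.8%, with a mean of 12.2% ± 1.84 (SD, n = 44). The ranges of the screens overlapped almost completely. Averaged within runs 1, 2 and 3, the dT share came to 11.4%, 12.5% and 13.8%, and the Bio share to 11.5%, 12.4% and 12.7%. Since every library is a bulk pool, a smaller number of cells and less RNA per cell cannot be told apart in these shares.

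Within the family the counts were very uneven. The 4 highest genes, RPL31, RPL13, RPL34 and RPL23, held 67.1% of the summed mean CPM of the 45 in dT and 65.5% in Bio, and the 10 highest held 90.0% and 89.2%. The 20 lowest held 1.10% and 1.16%. Of the 45 genes, 23 were counted in every dT library and 12 in every Bio library, 6 and 13 were counted in fewer than 50% of libraries, and none was without a count in either screen.

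RPL31, a protein at the rim of the exit tunnel, had the highest level in both screens. It lay at 16302 CPM in the lowest dT library, 26321 in the median and 50116 in the highest, with a mean of 28898 ± 8660 CPM (SD, n = 48). In Bio these values were 12432, 28736 and 45748 CPM. The level of RPL31 was 101 times that of the median gene of the family in dT, at 286 CPM, and 93.5 times in Bio, at 307 CPM. RPL13 had 15469, 23767 and 36065 CPM in the lowest, median and highest dT library, and RPL34 had 10516, 18964 and 35624 CPM. These 3 genes had overlapping ranges, and their order changed between libraries: RPL31 stood above RPL13 in 29 of 48 dT libraries, and RPL13 above RPL34 in 31 of 48. RPL23, which lies at the face that meets the small subunit, followed at 5953, 10979 and 16711 CPM and was below RPL34 in 46 of 48 libraries.

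Next came RPL19 (7859 ± 2332 CPM, SD, n = 48), which reaches across to the small subunit, and RPL36 (7318 ± 1724 CPM). Each of the 2 stood above the other in 24 of 48 dT libraries, so their order was not resolved. In Bio the fifth place by mean went to RPL36, at 9190 ± 3701 CPM (SD, n = 44), with RPL19 at 5815 ± 3410 CPM. RPL8, a protein of the catalytic core, had 5115 CPM in dT and 6102 CPM in Bio and stood above RPLP0, the base of the stalk, in 37 of 48 dT libraries. RPLP0, RPL11, RPL13A, RPL3, RPLP2 and RPL18 completed the 13 genes above 1000 CPM, which were the same 13 in both screens. In dT a middle group of 18 genes followed, from RPL10 at 864 CPM, a late-joining protein near the catalytic centre, through RPL28, RPLP1, RPL12, RPL35, RPL14, RPL6, RPL4, RPL37A, RPL37, RPL27, RPL29, RPL32, RPL41, RPL15, RPL9 and RPL26 to RPL5 at 117 CPM. The 14 genes under 100 CPM in dT were RPL23A (87.3 CPM), RPL7A, RPL24, RPL10A, RPL27A, RPL30, RPL22, RPL38, RPL35A, RPL39, RPL7, RPL17, RPL21 and RPL36A. Over the 45 genes, mean log2 CPM in dT and Bio had a Pearson correlation of 0.989 and a Spearman correlation of 0.987, as a description of genes that share a protocol.

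The lowest genes were nearly unseen. RPL21 was counted in 1 of 48 dT libraries (mean 0.979 CPM), RPL36A in 3 (0.570 CPM), RPL17 in 3 (2.75 CPM), RPL7 in 6 (1.95 CPM) and RPL39 in 21 (9.86 CPM). In Bio the 5 lowest by mean log2 CPM were RPL17, counted in 1 of 44 libraries, RPL36A in 2, RPL7 and RPL21 in 3 each, and RPL35A in 10. RPL17, RPL21, RPL36A and RPL39 have coding sequences in which every window of 59 bases, the read length, also occurs exactly in the transcript of another annotated gene. For these genes, and for RPL7 (98.4% of windows shared), a low count cannot be told apart from reads assigned to copies or dropped as ambiguous. RPL41 also shares all of its windows, yet it was counted in 48 of 48 dT libraries and 43 of 44 Bio libraries (means of 152 and 131 CPM).

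**Figure D1:**
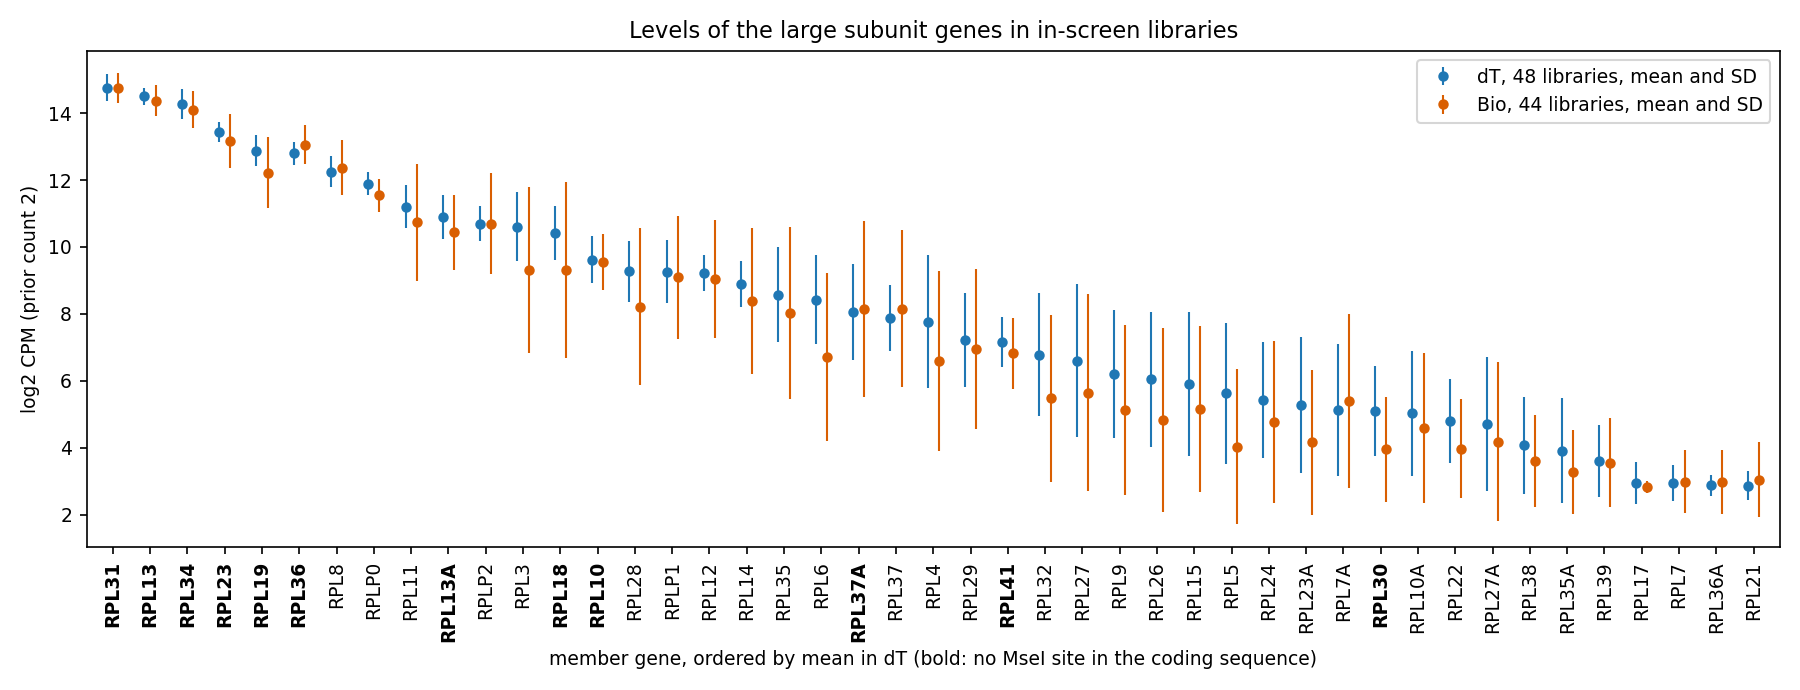
Mean log2 CPM (prior count 2) with its SD over libraries for each of the 45 large subunit genes, ordered from left to right by the dT mean, in the in-screen libraries of dT (n = 48) and Bio (n = 44). RPL31, RPL13, RPL34 and RPL23 lead in both screens, bold names mark the 12 genes without an MseI site in the coding sequence, and the SD bars of dT and Bio overlap for all 45 genes.

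Counts scaled to coding length were also uneven among proteins that share a place in the particle. The study describes 3′ end libraries, in which counts need not grow with coding length. The scaled values are therefore no measure of molecules. Unscaled, RPL5 had a mean of 117 CPM and RPL11 of 2580 CPM in dT. The stalk proteins were the closest group: in CPM per kilobase of coding sequence, RPLP1 had 2083 and RPLP2 had 5017 in dT, a span of 2.41-fold over the 3 genes (2.57-fold in Bio). RPL5 and RPL11, which travel to the ribosome as a pair with the smallest ribosomal RNA and bind the p53 regulator MDM2 when not assembled, had 130 and 4804 CPM per kilobase, 36.8-fold apart (45.0-fold in Bio). Among 7 proteins at the exit tunnel the per-kilobase level ran from 4.95 for RPL17 to 76450 for RPL31. Among 7 proteins of the core and the subunit interface it ran from 148 for RPL24, at the edge that faces the small subunit, to 26765 for RPL23. The groups were formed after the values had been seen, and these spans are a description.

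The levels went with a sequence feature. According to the methods of the study, the cDNA on beads was digested with MseI, an enzyme that cuts at TTAA. The barcode primer has a TTAA beside its biotin, and the supernatant of the digest was purified and amplified. The motif TTAA reads the same on both strands. It was absent from the coding sequence of 12 of the 45 genes (RPL10, RPL13, RPL13A, RPL18, RPL19, RPL23, RPL30, RPL31, RPL34, RPL36, RPL37A and RPL41), and the 6 highest genes in dT were all among them. These 12 held 83.2% of the summed mean CPM of the family in dT and 81.8% in Bio. Their median level was 4696 CPM in dT against 138 CPM for the 33 genes with a site, and 3797 against 146 CPM in Bio. Over the whole annotated transcript fewer genes lacked the motif. They were 3 of the 45 (RPL13, RPL34 and RPL36), which held 41.0% of the summed mean CPM in both screens. Of the other genes without a coding site, RPL31, RPL19, RPL10, RPL13A and RPL41 had 2 sites each outside the coding sequence, RPL23 and RPL18 had 1, RPL30 had 3 and RPL37A had 15. Whether the enzyme cut at sites within the cDNA was not measured, nor was the part of a transcript that each cDNA covered.

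The sequences below show the contrast in coding sequence between 2 abundant genes without the motif there and 3 scarce genes with it. They are the coding sequences of RPL31-208 (bases 79 to 378), RPL36-205 (bases 19 to 318), RPL35A-205 (bases 34 to 333), RPL38-202 (whole) and RPL39-201 (whole), from GENCODE release 29 on GRCh38, each 5′ to 3′ on the coding strand with TTAA in capitals. RPL31 lies at chr2:101001715-101024032 on the plus strand, RPL36 at chr19:5674947-5691876 (plus), RPL35A at chr3:197949980-197956610 (plus), RPL38 at chr17:74203582-74210655 (plus) and RPL39 at chrX:119786504-119791643 (minus). The printed bases are spliced from coding exons, without introns or untranslated ends.
RPL31: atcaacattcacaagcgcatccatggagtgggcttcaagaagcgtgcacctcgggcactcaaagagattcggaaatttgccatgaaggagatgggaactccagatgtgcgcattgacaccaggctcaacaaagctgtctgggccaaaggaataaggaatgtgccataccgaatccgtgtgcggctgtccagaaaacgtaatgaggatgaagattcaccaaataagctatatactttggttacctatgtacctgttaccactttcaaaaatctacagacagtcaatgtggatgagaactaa
RPL36: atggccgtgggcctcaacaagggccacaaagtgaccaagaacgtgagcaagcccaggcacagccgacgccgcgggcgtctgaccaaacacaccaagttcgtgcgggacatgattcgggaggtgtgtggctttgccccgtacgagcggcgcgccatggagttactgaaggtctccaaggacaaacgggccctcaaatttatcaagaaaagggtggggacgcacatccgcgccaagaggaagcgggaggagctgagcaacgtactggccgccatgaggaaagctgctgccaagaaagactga
RPL35A: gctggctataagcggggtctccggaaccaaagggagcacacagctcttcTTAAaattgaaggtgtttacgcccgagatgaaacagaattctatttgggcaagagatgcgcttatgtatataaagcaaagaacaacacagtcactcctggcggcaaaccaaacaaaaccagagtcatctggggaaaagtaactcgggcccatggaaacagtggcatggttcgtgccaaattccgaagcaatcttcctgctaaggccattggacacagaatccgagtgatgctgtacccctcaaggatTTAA
RPL38: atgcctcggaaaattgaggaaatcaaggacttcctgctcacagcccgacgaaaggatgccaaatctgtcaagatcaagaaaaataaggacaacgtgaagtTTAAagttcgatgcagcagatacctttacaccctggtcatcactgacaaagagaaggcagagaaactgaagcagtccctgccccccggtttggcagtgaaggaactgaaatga
RPL39: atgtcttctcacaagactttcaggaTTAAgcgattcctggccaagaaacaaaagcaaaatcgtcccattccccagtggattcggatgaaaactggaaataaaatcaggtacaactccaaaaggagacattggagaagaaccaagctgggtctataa

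RPL31 and RPL36 had 28898 and 7318 CPM in dT, and RPL35A, RPL38 and RPL39 had 23.6, 24.5 and 9.86 CPM. RPL35A carries the motif from coding bases 83 and 330, RPL38 from base 101 and RPL39 from base 26. In the whole transcript RPL36 has no site, RPL31 has 2, RPL35A 5, RPL38 3 and RPL39 1. RPL36, RPL35A and RPL38 share no exact coding window of 59 bases with another gene, although some reads were counted on their pseudogenes (1948 against 227166 own counts for RPL36, 12 against 821 for RPL35A and 161 against 793 for RPL38). RPL31 shares 24.7% of its windows and RPL39 all of them.

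Over the 45 genes, the number of TTAA sites in the coding sequence and the mean log2 CPM had a Spearman correlation of -0.61 in both screens. With mean CPM in place of mean log2 CPM, the correlation was -0.59 in dT and -0.57 in Bio for coding sites, and -0.49 and -0.47 for sites in the whole transcript. The correlation with coding GC content was 0.60 in dT and 0.64 in Bio, that with the percent of shared windows -0.44 and -0.43, and that with coding length 0.15 and 0.12. These are descriptions across 45 genes, and the features are tied to each other, since TTAA is itself poor in GC. Among genes under 50% shared windows, the 9 without the motif had a median of 7859 CPM in dT and the 16 with it 347 CPM. Among genes with at least 50% shared windows, the medians were 864 CPM for 3 genes without it and 87.3 CPM for 17 with it.

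The split had exceptions on both sides. RPL8 had 5115 CPM with a site at base 206 of 774, RPLP0 had 3899 CPM with a site at base 44 of 954, and RPL11 had 2580 CPM with a site at base 280 of 537. RPLP2 had 1746 CPM, and its only site begins at base 345 of 348, at the stop codon. RPL30 has no coding site (3 in the transcript) and no shared coding windows, yet it had 44.4 CPM in dT and 28.4 CPM in Bio. Other genes showed a split of counts too: of 32 small subunit genes, 11 lack the motif and held 86.2% of that list's CPM in dT, and of 14862 coding genes in the table, 29.1% lack it and held 65.0%. Over all those coding genes the relation was weak, with medians of 6.52 CPM without and 4.40 CPM with a coding site in dT and a Spearman correlation of -0.07 (-0.10 in Bio). Whether digestion sets these levels was not tested.

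**Figure D2:**
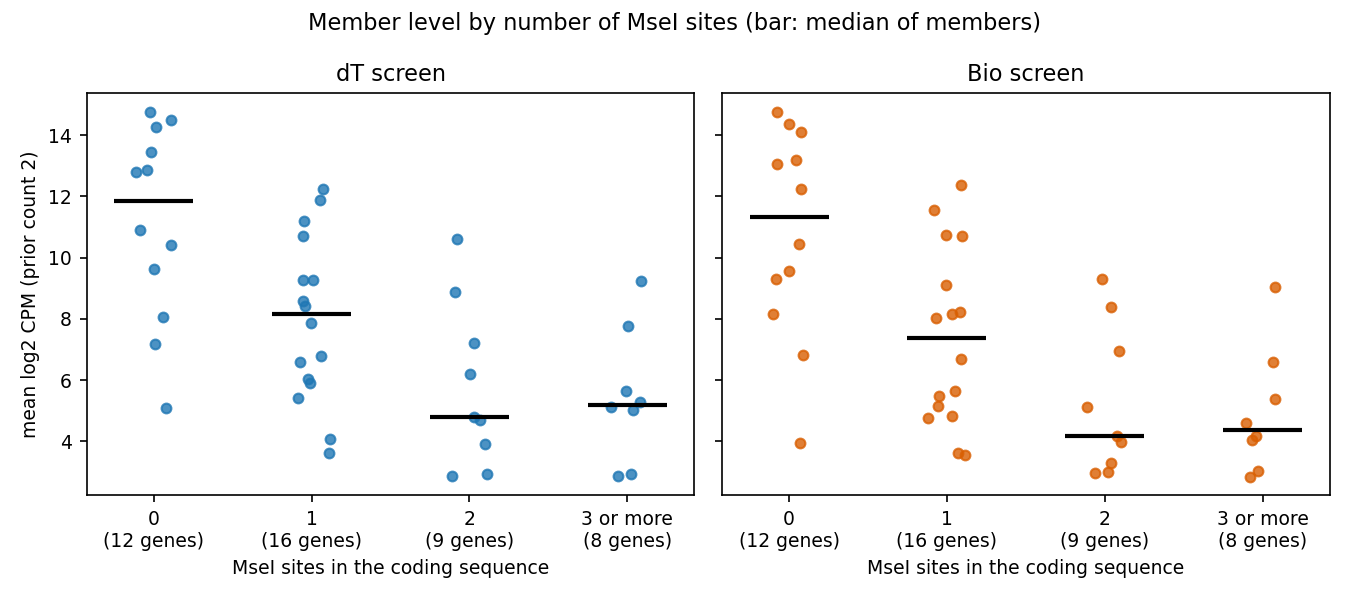
Mean log2 CPM (prior count 2) of each of the 45 genes in dT and Bio, with 1 point per gene, by the number of MseI sites in its coding sequence (12 genes with 0, 16 with 1, 9 with 2 and 8 with at least 3), and a bar at the median of each class. The class without a site has the highest median in both screens, and RPL30 is its lowest point.

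The first comparison asked how each drug changed the family when it was present in either position. In the main fit imatinib came with a small rise of 4 genes in dT, and no rise was called in Bio. RPL31, RPL13 and RPL34, the highest of the family, were among the 4, but RPL23, RPL19 and RPL36, next in level, were not. In dT, 4 of the 41 genes tested were higher with imatinib at an adjusted p under 0.05 (RPL31, RPL34, RPL13 and RPL11) and none was lower, while 2.85% of all 3930 genes tested were called (0.916% higher and 1.93% lower). The median log2 fold change was 0.21 over the 41 genes and 0.09 over all genes tested. Adjusted p-values here and below come from the quasi-likelihood test of edgeR, adjusted by the Benjamini-Hochberg method over all genes tested.

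RPL31 had 16302, 29900 and 48425 CPM in the lowest, median and highest of the 21 dT libraries with imatinib, and 17755, 25232 and 50116 CPM in the 27 without. The difference was 0.36 ± 0.08 on the log2 scale (SE, adjusted p = 0.0124). With DMSO as the partner, RPL31 was not higher when imatinib was listed second. Its mean was 21145 ± 4413 CPM in DMSO_Imatinib, 23162 ± 3068 CPM in DMSO_DMSO and 29508 ± 7382 CPM in Imatinib_DMSO (SD over the runs). RPL34, in contrast, also differed with the second-listed drug, as given below. RPL34 had 13284, 21662 and 35624 CPM with imatinib and 10516, 18480 and 35595 CPM without (0.32 ± 0.07, adjusted p = 0.00494). The ranges of both genes overlapped nearly throughout, and the shift was small beside the spread between libraries.

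RPL13 had 17881, 25051 and 36065 CPM with imatinib and 15469, 23584 and 30192 CPM without (0.24 ± 0.06, adjusted p = 0.0222). RPL11 had 783, 2916 and 5799 CPM with and 710, 2121 and 4817 CPM without (0.65 ± 0.19, adjusted p = 0.0468). All 4 genes were higher with imatinib within each of the 3 runs, although single libraries of the arms overlapped. RPL8, at 0.46 ± 0.15, did not pass (adjusted p = 0.090).

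The calls of these 4 genes depended on the scaling and the block. With DESeq2 size factors in place of TMM, the median of all genes moved from 0.09 to -0.08, the median of the 41 large subunit genes became 0.00, and none of the 4 passed (RPL11 0.49, RPL31 0.19, RPL34 0.15 and RPL13 0.08). Without run as a block, 0 of the 41 passed among 3061 genes tested, with fitted changes of much the same size (RPL11 0.66, RPL31 0.36, RPL34 0.29 and RPL13 0.21).

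Trametinib and YM115 called none of the 41 genes in dT, where 1.35% and 2.54% of all genes were called (1.53% higher and 1.02% lower for YM115). At an unadjusted p under 0.05 there were 3 genes for trametinib and 4 for YM115, beside 495 and 566 of all 3930 genes. Medians were 0.06 for trametinib against 0.22 over all genes, and 0.07 for YM115 against 0.24. In Bio, 0 of 39 genes tested were called for any of the 3 drugs, with 2.39% of 1754 genes called for imatinib, 2.11% for trametinib and 2.79% for YM115 (2.17% higher and 0.627% lower). The number at an unadjusted p under 0.05 in Bio was 4, 1 and 1, beside 262, 217 and 278 of all 1754 genes. DESeq2 called 1, 0 and 1 gene of the family after adjustment.

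The 4 genes called with imatinib in dT had log2 differences in Bio of 0.08 ± 0.14 (RPL31), -0.00 ± 0.16 (RPL34), 0.01 ± 0.12 (RPL13) and 0.17 ± 0.45 (RPL11, SE). None of these passed. A test of the difference between the screens' imatinib effects called 0 of 41 genes (5.8% of all 4705 genes, 2.98% with the higher effect in Bio and 2.83% with the lower). In that test 1 member had an unadjusted p under 0.05, beside 1013 of the 4705 genes. The dT and Bio effects of imatinib on the family were therefore not shown to differ. For trametinib the same test called 0 of 41 (4.59% of all genes, 2.36% higher and 2.23% lower in Bio). No member had an unadjusted p under 0.05 for trametinib, beside 896 of the 4705 genes. For YM115 the test called 1, RPL10A, which had the higher effect in Bio (6.59% of all genes, 4.38% higher and 2.21% lower).

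Among genes counted in 50% of libraries or more, the largest fitted changes had wide errors. For imatinib in dT they were RPL5 at 1.78 ± 1.02 (adjusted p = 0.453), RPL9 at -1.51 ± 0.77 (adjusted p = 0.378) and RPL15 at 0.97 ± 0.85. For trametinib in dT they were RPL7A at 2.15 ± 1.30, RPL30 at 1.29 ± 0.75 and RPL15 at -1.20 ± 0.98, and for YM115 in dT RPL5 at 1.60 ± 0.96, RPL27A at 1.50 ± 1.25 and RPL7A at 1.42 ± 1.11. None of these 9 values passed the threshold.

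In Bio, under the same limit, the largest changes were RPL27 at -1.92 ± 1.47, RPL3 at 1.67 ± 0.73 and RPL10A at 1.58 ± 1.02 for imatinib, and RPL15 at 1.97 ± 1.64, RPL32 at 1.88 ± 1.29 and RPL10A at 1.85 ± 1.01 for trametinib. RPL3, a core protein whose tip reaches the catalytic centre, ran from 0 through a median of 1869 to 12514 CPM with imatinib and from 0 through 624 to 2783 CPM without (adjusted p = 0.238). For YM115 they were RPL10A at 4.30 ± 1.41 (adjusted p = 0.0811), RPL15 at 2.50 ± 1.81 and RPL22 at 2.44 ± 1.28. RPL10A, the protein of the mobile stalk at the tRNA exit, was counted in 14 of 21 Bio libraries with YM115 and in 8 of 23 without.

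**Figure D3:**
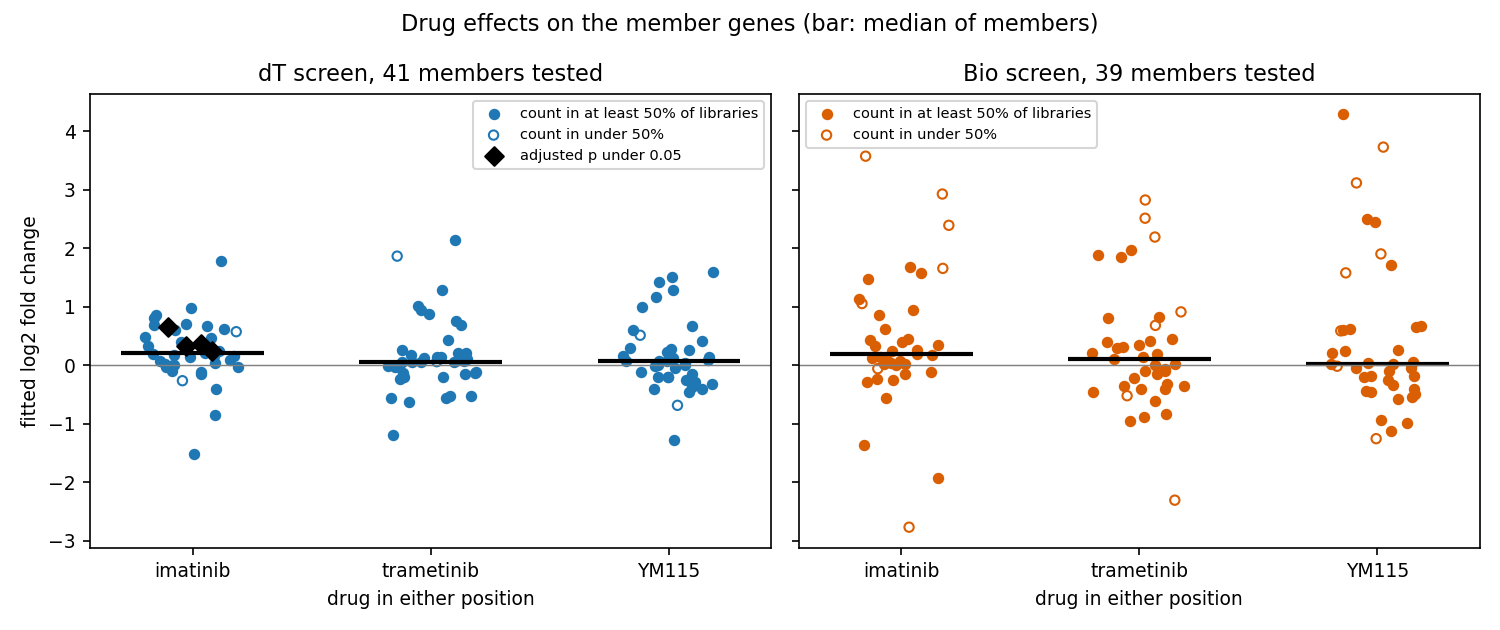
Fitted log2 fold change of each large subunit gene tested, with against without each drug, in dT (41 genes) and Bio (39 genes), with 1 point per gene and a bar at the median. Black diamonds mark the 4 genes past the threshold, RPL31, RPL34, RPL13 and RPL11 for imatinib in dT, all above 0, and open circles mark genes counted in fewer than 50% of libraries.

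The second comparison asked whether the position of a drug mattered, by a joint test of the 3 drugs against DMSO in that position. In the study each drug was mixed with its own barcode fragment. Within a screen, drug and barcode of a position therefore cannot be told apart here. The study also ran its small screen with the types of barcode fragment swapped between the injection sources. Which of dT and Bio is the swapped screen was not settled. In dT 6 of the 41 genes differed with the first-listed drug (RPL23, RPL31, RPL11, RPL13, RPL34 and RPL3). Of all genes tested 14.4% were called, a share close to that of the family. At an unadjusted p under 0.05 there were 9 of the 41, beside 1144 of all 3930 genes. With the second-listed drug 1 gene differed, RPL34, where 6.11% of all genes were called. In Bio neither position called any of 40 genes, where 16.4% and 15.5% of 2112 genes were called. For each position 2 members had an unadjusted p under 0.05, beside 733 and 696 of the 2112 genes.

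RPL23 separated the groups most clearly. In the 12 dT libraries with DMSO listed first it had 5953, 9235 and 10344 CPM (lowest, median and highest). With imatinib first it had 8423, 12742 and 16711 CPM, with trametinib first 9120, 10556 and 13534 CPM, and with YM115 first 11654, 12634 and 15154 CPM. Every library with YM115 listed first lay above every library with DMSO listed first, while the other groups overlapped with DMSO. The fitted differences from DMSO first were 0.76 for imatinib, 0.52 for trametinib and 0.77 for YM115 on the log2 scale (joint adjusted p = 5.35e-08).

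The second-listed drug left RPL23 with fitted differences of 0.00, 0.10 and -0.16 (joint adjusted p = 0.189). In the 3 runs of DMSO_YM115 it had 5953, 7793 and 9347 CPM, and in those of YM115_DMSO 15154, 14392 and 13582 CPM. The same drug and solvent in the reverse order thus gave ranges that did not overlap. For DMSO_DMSO the runs had 9225, 9297 and 7861 CPM. In Bio the first-listed terms for RPL23 were 0.15, 0.20 and -0.03 (joint adjusted p = 0.932).

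RPL31 followed the first-listed drug as well, with a wider spread. It had 16302, 22494 and 37940 CPM with DMSO first, 24118, 30522 and 48425 CPM with imatinib first, 17755, 24123 and 44219 CPM with trametinib first, and 20824, 29167 and 50116 CPM with YM115 first. All 4 ranges overlapped. The fitted differences were 0.63, 0.28 and 0.50 (joint adjusted p = 3.08e-06), and in Bio 0.46, 0.32 and 0.38 (joint adjusted p = 0.275).

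RPL11 had 710, 1825 and 2916 CPM with DMSO first and medians of 3002, 2623 and 2575 CPM with imatinib, trametinib and YM115 first (differences 1.07, 0.73 and 0.88, joint adjusted p = 0.00448). RPL3 moved in both directions, with a median of 2065 CPM with DMSO first and 3124, 1144 and 1480 CPM with imatinib, trametinib and YM115 first (0.66, -0.61 and -0.43, joint adjusted p = 0.0237). RPL13 (0.24, 0.27 and 0.07, joint adjusted p = 0.0133) and RPL34 (0.31, 0.15 and 0.08, joint adjusted p = 0.0251) moved less on the TMM scale of the fit. On the CPM scale their medians were nearly level, at 23854, 24143, 24645 and 22444 CPM for RPL13 and 18944, 20863, 18531 and 19084 CPM for RPL34 with DMSO, imatinib, trametinib and YM115 first. For the second-listed drug, RPL34 had medians of 18606, 21739, 19678 and 16558 CPM with DMSO, imatinib, trametinib and YM115 (0.32, 0.25 and 0.09, joint adjusted p = 0.0271).

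Depth moved with the first-listed drug. The mean total count of dT libraries was 198556 with DMSO first, 344799 with imatinib, 371956 with trametinib and 456524 with YM115, and the number of detected genes rose from 2573 to 3375, 3943 and 4081. The share of counts held by the 45 genes was 12.0% ± 1.27, 13.8% ± 1.59, 12.1% ± 1.75 and 12.6% ± 1.20 in the same order (SD, n = 12 each), so the family as a whole did not follow depth in order. With log2 total counts as a covariate, RPL31 (adjusted p = 0.000948), RPL23 (adjusted p = 0.00996) and RPL3 (adjusted p = 0.0272) passed, and RPL11, RPL13 and RPL34 did not. When testing was limited to genes seen in 50% of libraries or more, 3 of the family and 81 of all genes passed, against 6 and 565.

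**Figure D4:**
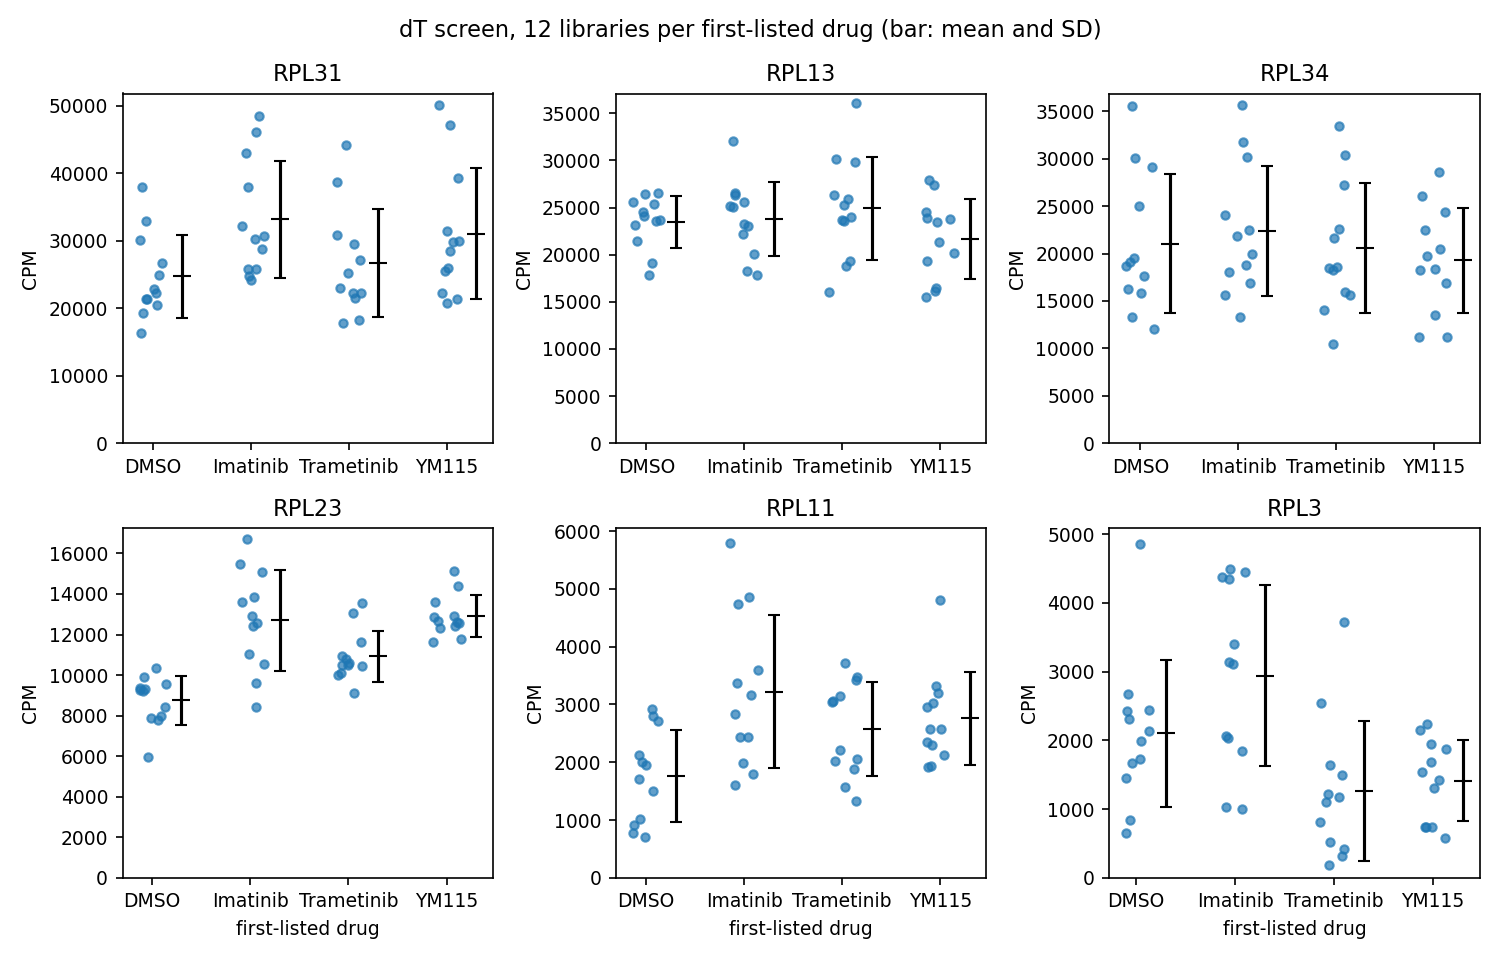
Level (CPM) of RPL31, RPL13, RPL34, RPL23, RPL11 and RPL3 in the 12 dT libraries of each first-listed drug, with 1 point per library and a bar for the mean and SD. For RPL23 all libraries with YM115 first lie above all with DMSO first, whereas the other 5 genes overlap between all groups.

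Across the 16 ordered pairs of dT taken separately, 2 of 41 genes differed, RPL31 (adjusted p = 0.000231) and RPL23 (adjusted p = 0.000249), where 0.319% of 6263 genes were called. The mean of RPL23 ran from 7698 ± 1699 CPM in DMSO_YM115 to 15038 ± 1941 CPM in Imatinib_Trametinib, and that of RPL31 from 21145 ± 4413 CPM in DMSO_Imatinib to 35703 ± 8977 CPM in Imatinib_Imatinib (SD, n = 3 each). With DESeq2 size factors both missed the threshold (adjusted p = 0.0626 for RPL31 and 0.0599 for RPL23), and without run as a block RPL31 did (adjusted p = 0.170). In Bio 0 of 42 genes differed between pairs, where 22.8% of 4888 genes were called. There 2 members had an unadjusted p under 0.05, beside 2304 of the 4888 genes.

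The separate DMSO controls were made apart from the mixed droplets of the screen and were compared with in-screen DMSO_DMSO. They differed in composition: 7410 to 10361 detected genes and 10.2% to 36.9% mitochondrial counts in dT, and 5501 to 7058 genes and 5.10% to 28.1% in Bio. The in-screen ranges were 1837 to 5110 genes and 2.71% to 7.33% in dT, and 1030 to 3849 genes and 2.38% to 6.87% in Bio, so 1 Bio control, at 5.10%, lay within the in-screen mitochondrial range. The large subunit genes held 9.73%, 3.60% and 11.0% of counts in the 3 separate dT controls and 8.31%, 4.22% and 4.18% in those of Bio. The dT control at 3.60% and the Bio controls at 4.22% and 4.18% lay below every in-screen library compared, and the other 3 lay within the in-screen ranges.

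The 4 leading genes took less of the family's counts in 2 of the 3 separate dT controls. They held 46.9%, 40.6% and 64.4% of family counts in the separate dT controls, against 58.4% to 75.9% in-screen and 61.7%, 64.4% and 64.3% in DMSO_DMSO. The control at 64.4% lay within the in-screen range. The 12 genes without TTAA held 70.1%, 67.8% and 77.7% of family counts in the separate dT controls, against 78.3% to 88.2% in-screen. In Bio these 12 held 68.1%, 73.0% and 75.9%, all within the in-screen range of 67.8% to 87.5%. The 4 leading genes held 45.2% to 47.2% in the separate Bio controls, below the in-screen range of 51.2% to 74.8%. More of the family was seen: 40 of 45 genes had counts in all 3 separate dT controls and 28 in all 3 DMSO_DMSO libraries, and in Bio the numbers were 31 and 19.

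RPL13 was the gene that passed in dT, 1 of 41 tested where 0.116% of 6917 genes were called (0.0289% higher and 0.0867% lower). It had 9007, 3319 and 9243 CPM in the separate controls and 23157, 25550 and 19106 CPM in DMSO_DMSO, 2 groups that did not overlap. The fitted difference on the TMM scale was -1.09 ± 0.24 (SE, adjusted p = 0.0262). The median difference was 0.64 over the 41 genes and 3.36 over all genes tested, many of which were at 0 in the in-screen libraries. At an unadjusted p under 0.05 there were 8 genes of the family, beside 1108 of all 6917 genes.

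RPLP0 had 1020, 421 and 1155 CPM in the separate dT controls and 4579, 3292 and 2128 CPM in DMSO_DMSO, without overlap (-1.39 ± 0.42, adjusted p = 0.299). RPL35A, which is mutated in some families with Diamond-Blackfan anaemia, went the other way: 326, 23.4 and 364 CPM in the separate controls and 0 CPM in all 3 DMSO_DMSO libraries (adjusted p = 0.299). Neither passed.

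In Bio 0 of 42 genes passed, where 0.0487% of 6158 genes were called. There 6 members had an unadjusted p under 0.05, beside 579 of the 6158 genes. RPL31 had 8030, 5495 and 6068 CPM in the separate controls and 18242, 22393 and 40229 CPM in DMSO_DMSO (-2.06 ± 0.51, adjusted p = 0.056). RPL13 had 12422, 7185 and 4581 CPM against 30316, 16719 and 14693 CPM (-1.44 ± 0.55, adjusted p = 0.336). Both genes were lower in every separate control than in any DMSO_DMSO library, and neither passed. DESeq2 called 9 of the large subunit genes in dT and 3 in Bio, among 599 and 1019 genes in all. Separate preparation, the depth of the 3 separate Bio controls (35742 to 89347 counts) and their mitochondrial share cannot be told apart.

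**Figure D5:**
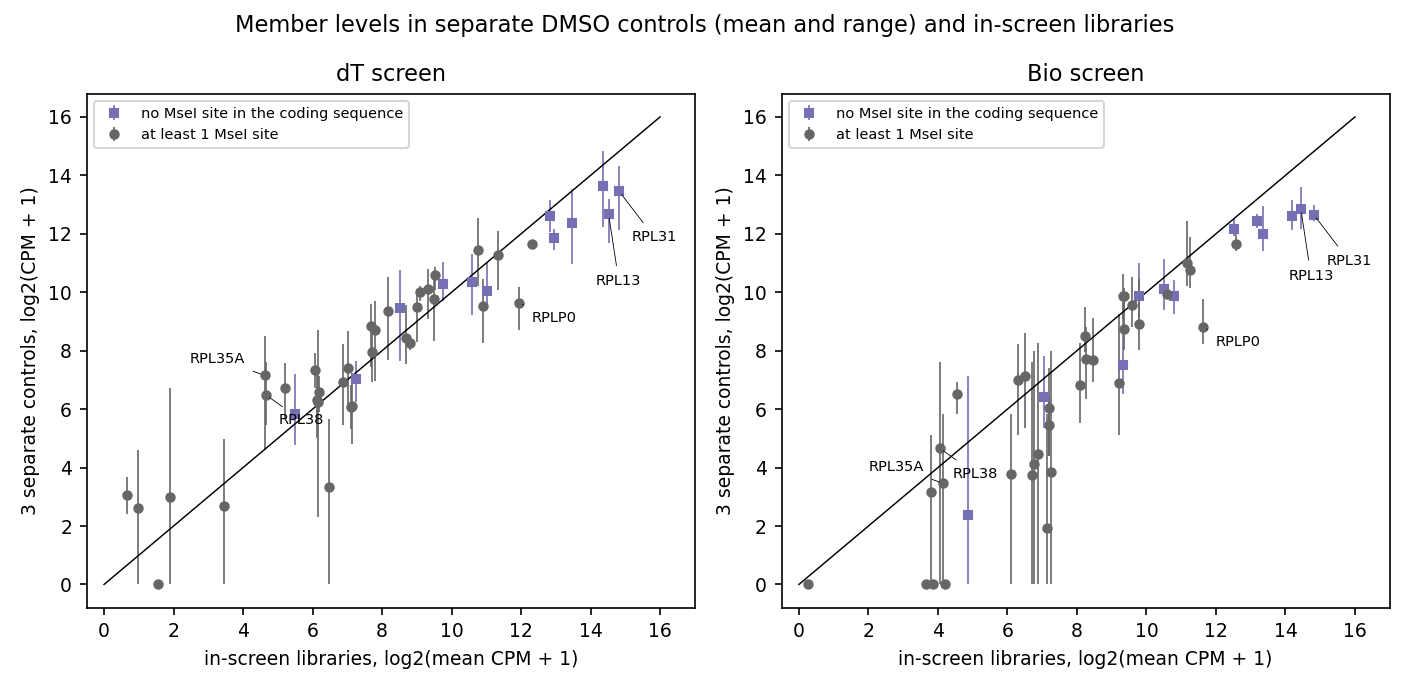
Level of each large subunit gene in the 3 separate DMSO controls (mean and range, log2 of CPM + 1) against its mean over in-screen libraries (same scale), in dT and Bio, with a line of equality. RPL31, RPL13 and RPLP0 lie below the line in both screens, and RPL35A and RPL38 lie above it in dT.

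The screens themselves were compared on counts summed per run over the pairs whose libraries passed in both, with 3 sums for each screen. None of 42 genes differed, where 0.0446% of 6724 genes were called by edgeR. At an unadjusted p under 0.05 there was 1 member, beside 463 of the 6724 genes. That member was RPL37, with 501, 558 and 720 CPM in Bio and 143, 297 and 425 CPM in dT (1.14 ± 0.47, adjusted p = 0.679). RPL31 had 25830, 28979 and 31329 CPM in Bio and 22192, 27022 and 37202 CPM in dT (0.09 ± 0.21). RPL23 had 8240, 10963 and 11627 CPM in Bio and 11649, 11852 and 11875 CPM in dT (-0.09 ± 0.13). DESeq2 also called 0 of the members, and screen and its runs cannot be told apart.

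Other genes of translation were followed as fixed lists. With imatinib in dT, 1 of 30 small subunit genes tested rose (RPS15, 0.29 ± 0.08, adjusted p = 0.0276), with a list median of 0.09, where 2.85% of all genes were called. Of 13 elongation and related genes, RACK1, a scaffold on the small subunit, rose (0.33 ± 0.09, adjusted p = 0.0265, mean 16924 against 14173 CPM). None of the 5 genes tested from the list of large subunit paralogs, and none of 11 ribosome-making genes, was called with imatinib in dT. In Bio RACK1 was the 1 gene called with imatinib among these lists (0.47 ± 0.13, adjusted p = 0.0442), and with YM115 in dT it was NPM1, a nucleolar chaperone (4.40 ± 1.10, adjusted p = 0.0146, 26.9 against 10.8 CPM). NPM1 was scarce, and its mean CPM differed by far less than the fitted change.

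Among the other list genes called, RPS15, RPS16, RPL36AL, RACK1, EEF2 and MYC differed with the first-listed drug in dT, and RPL39L with the second-listed. In Bio RPS20 and EIF3E differed with the first-listed drug, and RPS20 and EIF3F with the second-listed. Between ordered pairs RPS15 differed in dT, and RPL36AL, EIF3H, NCL and MYC in Bio. The separate dT controls had less RACK1 (-1.24). The drug effects differed between screens for UBTF (imatinib 7.43 and YM115 7.38) and RPS20 (YM115 5.17), each with the higher effect in Bio. The CPM levels behind these fitted differences are not reported here.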

How the data were processed

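Combi-Seq libraries of K562 cells were counted by the authors, who deposited raw read counts per gene without normalisation. Per the submitters' processing notes the reads were aligned with STAR 2.4.2a to GRCh38. The methods describe primers with a poly-dT end, biotin purification, template switching, digestion with MseI on beads and Tn5 fragmentation for 3′ end libraries. No collapse of reads by molecular identifiers was stated, so counts are reads and not molecules, and any limit from them covers counting error only. Whether counting used strand was not given in the sources used here. Samples were grouped by their titles (screen, first-listed drug, second-listed drug, run). The study describes its replicates as independent biological experiments.

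The 45 members, the other lists and the tests were chosen with earlier results of these data known. In-screen libraries were used when 1000 genes or more were detected and the 29 mitochondrial genes took no more than 15% of counts, and the separate controls were kept whatever their values. Each screen was fitted alone on the whole table in R 4.3.3 by edgeR 4.0.16, using filterByExpr defaults, TMM factors, glmQLFit and glmQLFTest, and p-values were adjusted by Benjamini-Hochberg over all genes tested at a threshold of 0.05. Run was a block, because the study removes the replicate as a batch and ties its raw files to replicates. Residuals of same-run libraries had a mean correlation of 0.0156 in dT and 0.0130 in Bio, against -0.00782 and -0.00651 between runs, and none of the same-run pairs was over 0.1. Drug effects had 1 term per drug in either position. Position had 3 terms for each of the first-listed and second-listed drug, and ordered pairs had 1 mean each. Screens were compared on counts summed per run. The fit's prior count shapes the fold changes of genes near 0. CPM is a count scaled to the library total, and log2 CPM has a prior count of 2. Of 102 replicate pairs compared, none held identical counts, and chi-square per degree of freedom was 5.62 or more.

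Genes were named by rule: each member past the threshold in any test, the 3 members with the largest absolute change per drug and screen among those seen in 50% of libraries or more, the 5 highest and 5 lowest members, those too sparse to test, and list genes past the threshold. Some list genes past the threshold are not reported here. RPL7, RPL17, RPL21 and RPL36A were too sparse for the dT drug and position fits. RPL30 and RPL35A were also too sparse for the Bio drug fits. Exceptions to the MseI pattern, RPL8, RPL31, RPL35A, RPLP0 and RPL37 where not covered by the rule, and the groups by place in the ribosome were chosen after the values were seen. Coding sequences, coordinates and shared windows of 59 bases came from GENCODE release 29 on GRCh38, matched by gene identifier for all 45. The alternatives were DESeq2 1.42.0 and its size factors, other filters on low counts and libraries, no block, depth as a covariate, single-drug libraries, counts summed per run and leaving out each run. Scripts were tested on simulated data. Python 3.11.15, numpy 2.4.6, pandas 2.3.3, scipy 1.17.1 and matplotlib 3.10.9 were used.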

Additional observations from a re-analysis of the deposited data

Results flagged for a closer look

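The effect of YM115 on RPL10A, the protein of the mobile stalk at the tRNA exit, differed between the screens by a test of the difference itself. The Bio minus dT difference of the log2 effect was 5.62 ± 1.68 (SE, adjusted p = 0.0277 by edgeR's quasi-likelihood test, 1 of 41 genes tested where 6.59% of 4705 genes were called). In Bio the gene had 0, 9.31 and 637 CPM (lowest, median and highest) in 21 libraries with YM115 and 0, 0 and 456 CPM in 23 without. In dT it had 0, 20.9 and 181 CPM with YM115 and 0, 45.5 and 843 CPM without. The arms overlapped in both screens, and neither effect passed alone (4.30 ± 1.41 in Bio, adjusted p = 0.0811, and -1.27 ± 0.98 in dT, adjusted p = 0.615). The difference passed under 3 of 9 alternatives, its adjusted p running from 0.00205 to 0.400, and not without run as a block (3.06).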

How the results depend on the processing

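Of 177 counts of members past the threshold under an alternative, 124 stayed within 1.5 times the count reported, and 53 did not. Counts of 0 that remained 0 are included in the 124. Where members had been called, fewer stayed. In dT these were 2 of 11 alternatives for imatinib, 3 of 9 for the first-listed and 2 of 9 for the second-listed drug. Ordered pairs in dT stayed in 4 of 8, the separate dT controls in 3 of 8 and YM115 by screen in 3 of 9. Of 140 values of single members, 54 stayed past the threshold and 86 did not. No fitted change of a single member reversed its sign, while joint tests have no sign to reverse. The cause of these changes was not tested.

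For imatinib in dT (4 members), the count was 0 with DESeq2 size factors, with DESeq2, with no filter on low counts, with a filter of 50% of libraries, in single-drug libraries and with counts summed per run, and 0 to 3 when a run was left out (3 without run 1, 0 without run 2 and 0 without run 3). The first-listed drug in dT (6) gave 2 with no filter and 3 with the 50% filter, and 2 whichever run was left out. The second-listed drug in dT (1) gave 0 with DESeq2, with no filter and with the 50% filter, 2 with depth as a covariate, and 0 to 1 with a run left out. Ordered pairs in dT (2) gave 1 with DESeq2 size factors, 5 with DESeq2, and 1 to 4 with a run left out. The separate dT controls (1) gave 9 with DESeq2, 0 with no filter, 0 with the 50% filter, and 0 to 1 with a run left out. RPL13 there ranged from -1.75 without run 3 to -0.68 without run 2. YM115 by screen (1) gave 2 with DESeq2, 0 with the 50% filter, 0 with all in-screen libraries, and 0 to 1 with a run left out.

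Where no member was called, DESeq2 gave 1 for YM115 in dT, 1 for imatinib and 1 for YM115 in Bio, and 3 for the separate Bio controls. The 50% filter gave 3 for the separate Bio controls. All in-screen libraries gave 1 for each position in Bio and 9 for ordered pairs in Bio. Depth as a covariate gave 2 and 3 for the first-listed and second-listed drug in Bio, and DESeq2 size factors gave 1 for ordered pairs in Bio. Leaving out a run gave 0 to 1 for YM115 in Bio, for the separate Bio controls and for imatinib by screen.

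The replicate number served as a block. Without this block the count was 0 for imatinib in dT, 3 for the first-listed and 0 for the second-listed drug in dT, 2 for ordered pairs in Bio, 1 for the separate Bio controls and 0 for YM115 by screen. It moved no other count of members by more than 1.5 times.

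Counts over all genes moved too, in part with the number of genes tested. Imatinib in dT called 112 of 3930 genes tested (2.85%), but 510 of 19688 with no filter (2.59%) and 0 with the 50% filter, the first-listed drug in dT 565 (14.4%) but 1153 of 6263 with depth as a covariate (18.4%), and ordered pairs in Bio 1116 but 0 with DESeq2. Low counts limit the scarce members, of which 6 in dT and 13 in Bio were counted in fewer than 50% of libraries.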
